A study of Homo sapiens with 4 samples.

Results

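Markers of tubular injury and of leukocyte adhesion were read in human proximal tubular cells (HPTCs) stimulated with IL-1β and empagliflozin (Empa). The set holds 10 genes, HAVCR1, SPP1, CLU, SOX9, PROM1, CD24, VCAM1, ICAM1, CD44 and CD274, chosen by name with earlier results of these data known. They are 10 of the 25683 gene names with a value on all arrays and are read by 11 of 34127 probes, since CD274 has 2 probes and each other gene has 1. Their source was a pair of immortalised human proximal tubular lines, HK-2, made with the papillomavirus genes E6 and E7, and RPTEC/TERT1, made with the telomerase gene TERT. Each line has 2 arrays by its labels, called array 1 and array 2 after their replicate numbers. All 4 came from normoglycemic cells kept for 24 h without serum and supplements, which then received IL-1β at 10 ng/mL together with 500 nM of Empa, an inhibitor of the glucose transporter SGLT2, for 24 h. Control arrays and arrays with IL-1β only were not analysed here, and the effect of neither agent can be read from these values.

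A proximal tubular cell that is damaged loses part of its differentiated programme and puts a characteristic set of proteins on its surface or into the urine. HAVCR1 (KIM-1), osteopontin (SPP1) and clusterin (CLU) are used as injury markers, while SOX9, PROM1 (CD133) and CD24 mark regenerating or scattered progenitor-like tubular cells. VCAM1 and ICAM1 are docking sites for leukocyte integrins and are classical targets of NF-κB downstream of IL-1β, CD44 binds hyaluronan and osteopontin, and CD274 (PD-L1) is a ligand of the T cell checkpoint receptor PD-1.

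The arrays crossed their labels. Across 17928 genes, which are not independent replicates, Pearson's r was 0.980 between HK-2 array 1 and RPTEC/TERT1 array 2 and 0.976 between HK-2 array 2 and RPTEC/TERT1 array 1, against 0.865 within the HK-2 label and 0.855 within the RPTEC/TERT1 label. Each array is therefore named by its label below, and no level is credited to a cell line beyond that. Levels are log2 of the processed spot signal over the array's 75th percentile, so 0 is the signal of that percentile and -5.37 is the floor under which no order is read. A probe counts as above background where Feature Extraction marks it well above background. Between 59.2 and 64.9% of the 43118 spots per array met that mark. Proximal tubule markers were above background for 7 to 10 of 15 genes per array, with a summed level of 31.8 times the 75th percentile on HK-2 array 1 and 34.9 on RPTEC/TERT1 array 2, against 5.01 on HK-2 array 2 and 5.46 on RPTEC/TERT1 array 1. On the former arrays the sums rest mainly on CDH16, a kidney cadherin, at 4.83 and 4.97 there and -0.55 on each of the latter. CDH2, N-cadherin, ran the other way (-2.36 and -2.48 on the former, up to 1.76 on the latter). It was the brightest of these markers on the latter arrays, so the sums do not rest on the same gene on all 4 arrays. CUBN, SLC22A6, ALPL and HNF4A, which serve or specify the differentiated proximal tubule, were below background on all 4 arrays. The part of this difference in the levels that follow was not tested.

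**Figure D1:**
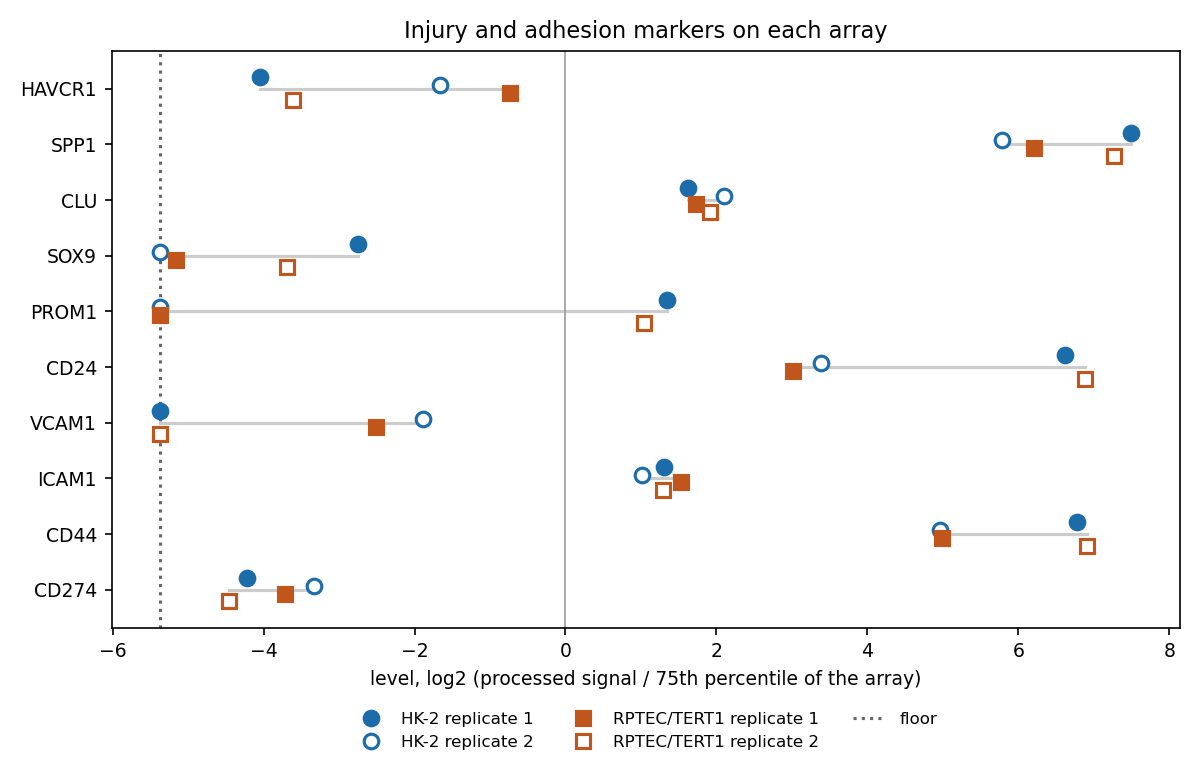
Level of each of the 10 genes on each of the 4 arrays (x axis, log2 of processed signal over the array's 75th percentile; circles HK-2, squares RPTEC/TERT1, filled replicate 1, open replicate 2; dotted line, floor of -5.37). PROM1, CD24, CD44, SPP1 and SOX9 were brightest on HK-2 array 1 and RPTEC/TERT1 array 2, HAVCR1, VCAM1 and CD274 on the other pair of arrays, and CLU and ICAM1 spanned 0.47 and 0.52.

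The injury markers fell into different patterns. HAVCR1, the phosphatidylserine receptor with which injured tubular cells take up dying neighbours, was above background on all 4 arrays. Its level was -4.05 on HK-2 array 1, -1.66 on HK-2 array 2, -0.73 on RPTEC/TERT1 array 1 and -3.61 on RPTEC/TERT1 array 2. HK-2 array 2 and RPTEC/TERT1 array 1 were the bright arrays, and the labelled lines overlapped. The range over the arrays was 3.32, the mean was -2.86 ± 1.69 (SD, n = 2) in HK-2 and -2.17 ± 2.04 (SD, n = 2) in RPTEC/TERT1, and in bulk RNA fewer cells with the transcript and less transcript per cell cannot be told apart. Its probe, A_23_P347610, is placed by the files at chr5:156456571-156456630 (GRCh37, as are all probe positions given here).

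SPP1, the secreted phosphoprotein osteopontin, was far above the 75th percentile on every array. Its level was 7.50 on HK-2 array 1, 5.79 on HK-2 array 2, 6.21 on RPTEC/TERT1 array 1 and 7.27 on RPTEC/TERT1 array 2. The first and last of these are lower bounds, because all 10 spots of the probe were saturated on HK-2 array 1 and so were all 8 spots kept on RPTEC/TERT1 array 2. SPP1 was, in the processed signal, at least 2.44-fold higher on HK-2 array 1 than on RPTEC/TERT1 array 1. It was at least 2.80-fold lower on HK-2 array 2 than on RPTEC/TERT1 array 2. The direction thus turned with the replicate number. With normexp on all spots the log2 differences (HK-2 minus RPTEC/TERT1) were 0.061 and -1.43, so the labels hardly differed at replicate 1. They were 0.68 and -0.98 with quantile normalization and 0.80 and -1.47 with the deposited log2 values. The spots of the probe (A_23_P7313, chr4:88903920-88903979) spread by an SD of 0.061 to 0.28 within an array.

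CLU, a secreted chaperone, had the narrowest range of the 10 genes in the processed signal, while ICAM1 had it with normexp (0.97) and with the deposited log2 values (0.55), and CD274 with normexp without bright background. Its level was 1.63 on HK-2 array 1, 2.10 on HK-2 array 2, 1.73 on RPTEC/TERT1 array 1 and 1.91 on RPTEC/TERT1 array 2. The arrays labelled RPTEC/TERT1 lay between those labelled HK-2. The range of 0.47 was under the median of all genes tested, which was 1.05, and the means were 1.86 ± 0.33 (SD, n = 2) in HK-2 and 1.82 ± 0.13 (SD, n = 2) in RPTEC/TERT1. Its probe, A_23_P215913, lies at chr8:27457403-27457462.

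All 3 progenitor markers were brightest on HK-2 array 1 and RPTEC/TERT1 array 2. PROM1, a pentaspan membrane glycoprotein, had a level of 1.34 on HK-2 array 1 and 1.04 on RPTEC/TERT1 array 2. On HK-2 array 2 and RPTEC/TERT1 array 1 it was not well above background and lay at the floor. The raw mean spot signal shows how wide that gap was, with 1007 and 804 units on the bright arrays against 45.3 and 41.0 on the dim ones, over local backgrounds of 35 to 39 units. In the processed signal PROM1 was at least 105-fold higher on HK-2 array 1 than on RPTEC/TERT1 array 1 and at least 84.9-fold lower on HK-2 array 2 than on RPTEC/TERT1 array 2. These are log2 differences of 6.71 and -6.41 (HK-2 minus RPTEC/TERT1). They were smaller with normexp on all spots (3.68 and -4.52) and with the deposited log2 values (3.80 and -4.22). Its probe, A_33_P3389842, lies at chr4:15982046-15982105.

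CD24, a small glycosylphosphatidylinositol-anchored sialoglycoprotein that is sorted for together with CD133, was above background on all 4 arrays. Its level was 6.62 on HK-2 array 1, 3.39 on HK-2 array 2, 3.01 on RPTEC/TERT1 array 1 and 6.88 on RPTEC/TERT1 array 2. The pattern was that of PROM1, but on the dim arrays CD24 stayed above the 75th percentile. In the processed signal HK-2 exceeded RPTEC/TERT1 by 12.2-fold at replicate 1 and RPTEC/TERT1 exceeded HK-2 by 11.2-fold at replicate 2. These are log2 differences of 3.60 and -3.49 (HK-2 minus RPTEC/TERT1). They were 2.57 and -3.48 with normexp on all spots and 3.33 and -3.44 with the deposited log2 values. The files place the CD24 probe (A_33_P3369844) at a copy on another chromosome than that of the gene itself, so signal from CD24 and from its copies cannot be told apart.

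SOX9, a transcription factor of tubular regeneration, was dim throughout. It reached -2.75 on HK-2 array 1 and -3.69 on RPTEC/TERT1 array 2, lay at the floor on HK-2 array 2 and, at -5.16, was not well above background on RPTEC/TERT1 array 1. SOX9 was, in the processed signal, at least 5.29-fold higher on HK-2 than on RPTEC/TERT1 at replicate 1 and at least 3.21-fold lower at replicate 2. With normexp without bright background the log2 differences were 0.97 and -0.99. Its probe, A_23_P26847, lies at chr17:70121841-70121900.

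VCAM1 and ICAM1, which are commonly read together as adhesion molecules of the activated tubule, did not share a pattern. VCAM1, the ligand of α4β1 integrin on lymphocytes and monocytes, had a level of -1.89 on HK-2 array 2 and -2.51 on RPTEC/TERT1 array 1 and lay at the floor on HK-2 array 1 and RPTEC/TERT1 array 2. Its raw mean spot signal was 250.6 and 132 units on the former arrays and 46.1 and 44.0 units on the latter, over local backgrounds of 35 to 39 units. VCAM1 was, in the processed signal, at least 7.25-fold higher on RPTEC/TERT1 than on HK-2 at replicate 1 and at least 11.2-fold lower at replicate 2. ICAM1, the ligand of the β2 integrins LFA-1 and Mac-1, was instead above background on every array. Its level was 1.30 on HK-2 array 1, 1.01 on HK-2 array 2, 1.53 on RPTEC/TERT1 array 1 and 1.30 on RPTEC/TERT1 array 2. In the processed signal ICAM1 was the only one of the 10 genes whose replicate differences shared a direction, with RPTEC/TERT1 brighter by 1.17-fold at replicate 1 and 1.22-fold at replicate 2. With the deposited log2 values VCAM1 and CD274 also kept a direction, and with normexp on all spots HAVCR1 did too. The ICAM1 difference was -0.26 (HK-2 minus RPTEC/TERT1, SE 0.44), the means being 1.16 ± 0.20 (SD, n = 2) in HK-2 and 1.41 ± 0.16 (SD, n = 2) in RPTEC/TERT1, and it did not pass the test given below. The VCAM1 probe (A_23_P34345) lies at chr1:101203783-101203842 and the ICAM1 probe (A_23_P153320) at chr19:10396298-10396358.

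**Figure D2:**
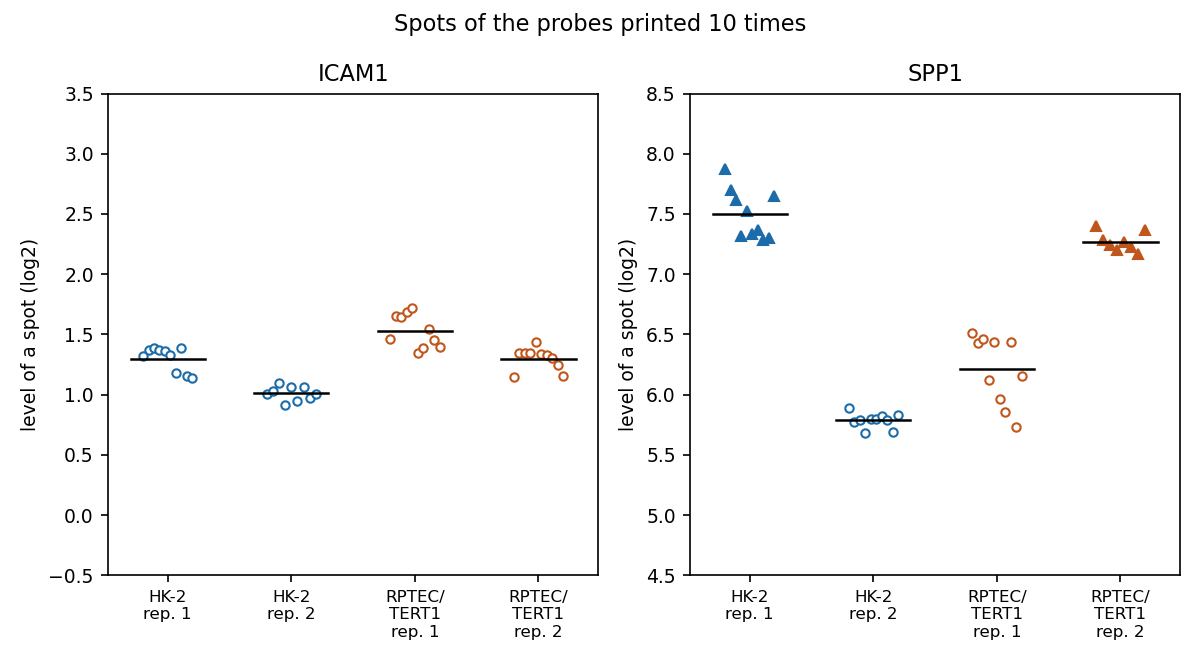
Spots of the ICAM1 and SPP1 probes, each printed 10 times per array (y axis, level of a spot in log2; bars, mean of the spots kept; triangles, saturated spots). ICAM1 spots spread by an SD of 0.061 to 0.14 within an array, and every SPP1 spot kept on HK-2 array 1 and RPTEC/TERT1 array 2 was saturated.

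The promoters of these adhesion genes are shown because they carry the same textbook regulation and yet the genes had different patterns. The sequences are the 250 bases before the start site in RefSeq (GRCh38.p14, plus strand, 5′ to 3′), VCAM1 at chr1:100719492-100719741 and ICAM1 at chr19:10270870-10271119. Capitals mark matches on either strand to the NF-κB consensus and to TATAAA. In the consensus searched, GGGRNWYYCC, R is A or G, W is A or T, Y is C or T and N is any base.
VCAM1: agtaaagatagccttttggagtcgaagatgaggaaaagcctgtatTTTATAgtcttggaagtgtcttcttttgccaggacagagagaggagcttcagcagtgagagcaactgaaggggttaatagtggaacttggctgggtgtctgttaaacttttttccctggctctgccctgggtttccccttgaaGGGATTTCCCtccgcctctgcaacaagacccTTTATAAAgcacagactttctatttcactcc
ICAM1: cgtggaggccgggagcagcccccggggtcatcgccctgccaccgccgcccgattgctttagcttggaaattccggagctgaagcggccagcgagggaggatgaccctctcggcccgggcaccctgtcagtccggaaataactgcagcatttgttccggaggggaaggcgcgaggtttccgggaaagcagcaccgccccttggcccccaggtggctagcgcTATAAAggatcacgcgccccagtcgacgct
The VCAM1 window holds GGGATTTCCC, a match to the NF-κB consensus read on both strands, at 62 to 53 bases before the start, and a TATAAA at 29 to 24 bases that overlaps one on the minus strand. A further minus-strand TATAAA lies at 205 to 200 bases. The ICAM1 window holds TATAAA at 30 to 25 bases and no match to the consensus as searched, which says only that those letters are not in this window. Stretches that miss the consensus by a single letter are not marked, among them TGGAAATTCC in the ICAM1 window and GGGTTTCCCC in the VCAM1 window. The capitals therefore draw no contrast in NF-κB sites between the genes. Of 35116 promoter windows of the same length, 5.21% held the NF-κB consensus and 10.7% held TATAAA. Of the 10 genes, 8 have promoter entries. In these, CD24 was the only other gene with a match to the NF-κB consensus, GGGGGTCCCC. A match is a description of the letters and not a binding site.

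CD44, the hyaluronan receptor of migrating and regenerating epithelium and also a receptor of osteopontin, was brightest on the same arrays as SPP1. Its level was 6.78 on HK-2 array 1, 4.96 on HK-2 array 2, 4.99 on RPTEC/TERT1 array 1 and 6.91 on RPTEC/TERT1 array 2. In the processed signal the dim arrays differed by less than 0.1, and the bright arrays lay nearly 2 above them on the log2 scale. The folds were 3.45 at replicate 1 (HK-2 higher) and 3.86 at replicate 2 (RPTEC/TERT1 higher). These are log2 differences of 1.79 and -1.95 (HK-2 minus RPTEC/TERT1). They were 0.58 and -1.81 with normexp on all spots and 1.30 and -1.77 with the deposited log2 values. The CD44 probe, A_33_P3294509, lies at chr11:35253812-35253871.

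CD274 was near background. On the probe that was measured (A_23_P338479, chr9:5468310-5468369) its level was -4.22 on HK-2 array 1, -3.33 on HK-2 array 2 and -3.71 on RPTEC/TERT1 array 1, and on RPTEC/TERT1 array 2 it was -4.46 and not well above background. The other CD274 probe (A_33_P3381513, chr9:5465546-5465605) was not well above background on any array. The range of 1.13 depends on the background correction and was 0.17 with normexp after spots of bright local background were left out.

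The brightest pair of arrays moved with the background correction for VCAM1, HAVCR1, CD274 and ICAM1. HK-2 array 1 held 8 spots with a local background of over 2 times the array's median, up to 48831 units, against maxima of 46 to 54 on the other arrays. With normexp on all spots, VCAM1 was -0.31 on HK-2 array 1, above the other arrays (-2.96 to -1.61), and with those 8 spots left out it was -2.86 there, near the -2.96 of RPTEC/TERT1 array 2. HAVCR1 behaved alike, at -0.29 and then -2.33 on HK-2 array 1. In the deposited log2 values, centred on each array's 75th percentile, VCAM1 was also brightest on HK-2 array 1, at -1.06. For PROM1, HK-2 array 1 and RPTEC/TERT1 array 2 were the brightest pair under all 4 settings, though their order turned with normexp on all spots (0.47 and 0.74).

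**Figure D3:**
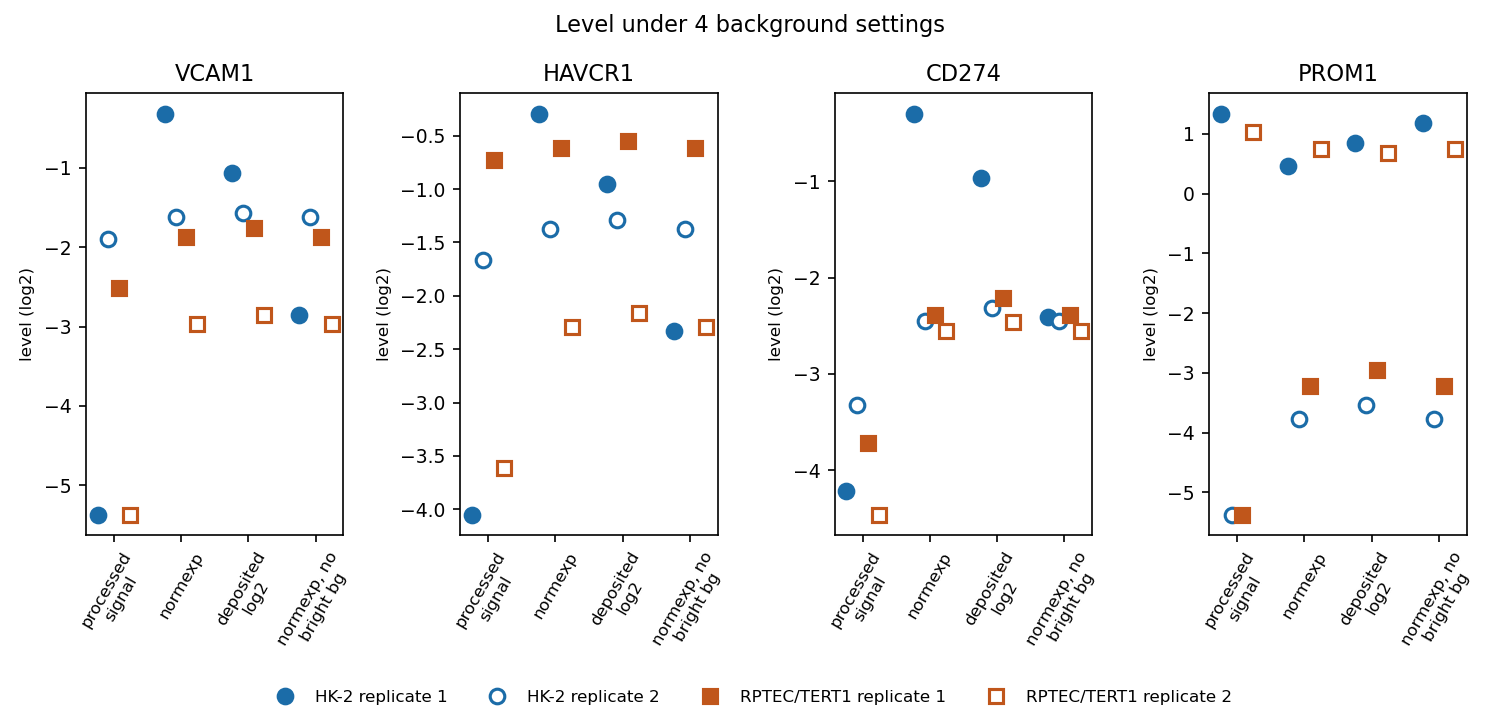
Levels of VCAM1, HAVCR1, CD274 and PROM1 on the 4 arrays (y axes, log2 of signal over the 75th percentile; markers as in the plot of levels) from the processed signal, from normexp, from the deposited log2 values, and from normexp without the 8 spots of bright local background. The brightest pair of arrays changed for VCAM1, HAVCR1 and CD274 under normexp or the deposited values and was the same under all 4 settings for PROM1.

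The labelled cell lines were compared with limma over the 16468 genes tested, those for which 2 or more arrays were above background. All 10 genes were tested, though VCAM1, SOX9 and PROM1 were above background on only 2 arrays and so passed through the arrays on which they were bright. None of the 10 differed between HK-2 and RPTEC/TERT1 at an adjusted p of 0.05 (limma, Benjamini-Hochberg), and 0% of all genes tested did. At an unadjusted p under 0.05 limma gave 23 genes, 0 of the 10 among them. PROM1 differed by 0.15 (HK-2 minus RPTEC/TERT1, SE 3.20), CD24 by 0.057 (SE 1.77) and HAVCR1 by -0.69 (SE 1.35). The PROM1 arrays spread by an SD of 4.75 within the HK-2 label and 4.53 within the RPTEC/TERT1 label (n = 2 each). CLU differed by 0.043 (SE 0.45) and CD44 by -0.080 (SE 1.00).

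Within a replicate number (arrays of a number share their scan date) there is 1 array per label and no test. At replicate 1, 5 of the 10 genes were higher in HK-2 by over 1 on the log2 scale, against 19.6% of all genes tested, and 2 were lower, against 16.4%. At replicate 2, 3 were higher, against 16% of all genes, and 5 were lower, against 17.8%. The 5 genes higher in HK-2 at replicate 1, PROM1, CD24, SOX9, CD44 and SPP1, were the 5 lower at replicate 2. HAVCR1 and VCAM1 were lower at replicate 1 and higher at replicate 2. The sign turned for 9 of the 10 genes in the processed signal, for 7 with the deposited log2 values, for 6 with normexp on all spots and for 9 with normexp without bright background. The share of all genes tested whose sign turned in this way is not given here. A different measure, replicate 1 minus replicate 2 within a label, had opposite signs in the labelled lines for 75.5% of all genes tested. By that measure CLU (-0.47 in HK-2 and -0.18 in RPTEC/TERT1) and ICAM1 (0.29 and 0.23) shared a sign in the processed signal. For ICAM1 the signs were opposite with normexp on all spots and with the deposited log2 values. Its normexp levels at replicates 1 and 2 were 0.44 and 0.90 in HK-2 and 1.41 and 1.16 in RPTEC/TERT1.

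**Figure D4:**
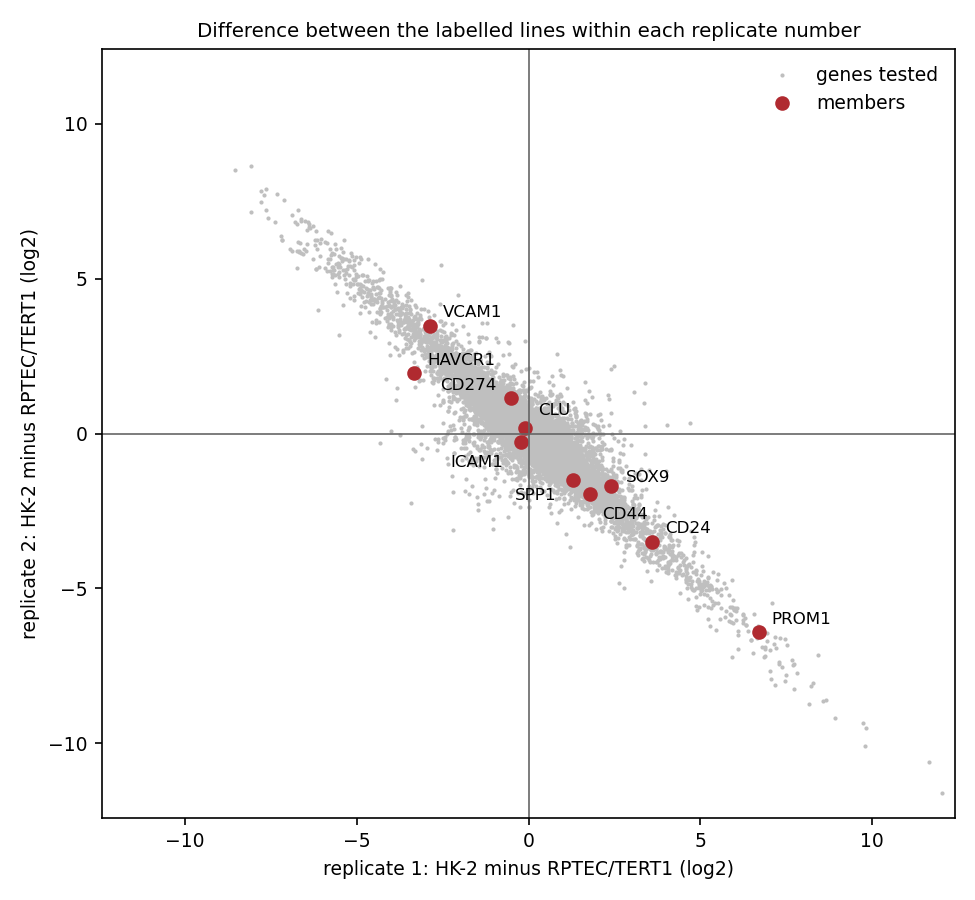
Difference between the labelled lines (HK-2 minus RPTEC/TERT1, log2) at replicate 1 (x axis) and replicate 2 (y axis) for 16468 genes tested (grey) and the 10 genes (red). The cloud runs from upper left to lower right, and of the 10 genes ICAM1 alone has the same sign on both axes.

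Over the 4 arrays, 8 of the 10 genes had a range over 1, against 52.9% of all genes tested. The median range of the 10 was 2.28 against 1.05. The 10 genes were chosen with earlier results of these data known, so this contrast is a description and not a test. VCAM1, SOX9 and PROM1 were above background on only 2 arrays, and their ranges run down to the floor. The brightest arrays were HK-2 array 1 and RPTEC/TERT1 array 2 for 5 of the 10 genes (38.8% of all genes tested) and HK-2 array 2 and RPTEC/TERT1 array 1 for 3 (33.2%). They were HK-2 array 1 and RPTEC/TERT1 array 1 for ICAM1 (9.75%) and HK-2 array 2 and RPTEC/TERT1 array 2 for CLU (10.8%). None of the 10 was brightest on the arrays labelled HK-2 (4.36%) or on those labelled RPTEC/TERT1 (2.81%). For ICAM1 the order rests on HK-2 array 1 and RPTEC/TERT1 array 2 having the same level to 2 decimals.

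No gene of the companion lists differed between the labelled lines in limma. Over all genes tested, 52.9% had a range over 1 and the median range was 1.05. The counts of every list below stand against these values. Among surface ligands of leukocytes, 11 of 15 genes tested had a range over 1 and the median range was 1.49. CX3CL1, the membrane-bound chemokine fractalkine, was bright on HK-2 array 1 and RPTEC/TERT1 array 2 (0.060 and 0.21) and dim on the other arrays (-3.03 and -4.06). JAM3, a junctional ligand of Mac-1, shared the arrays of VCAM1, at -2.09 on HK-2 array 2, -1.48 on RPTEC/TERT1 array 1 and the floor elsewhere. Of the adhesion receptors listed for the members, 9 of 13 genes tested had a range over 1. ITGB8, a partner of αv integrin, was at 4.08 and 3.91 on HK-2 array 1 and RPTEC/TERT1 array 2 and at 0.20 and 0.48 on the others.

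Other injury and repair markers had a median range of 1.97, with 22 of 26 tested over 1 (52.9% of all genes tested). Of the 26, 19 were brightest on HK-2 array 1 and RPTEC/TERT1 array 2, against 38.8% of all genes tested. CCL2, the monocyte chemokine MCP-1, had the widest range in that list, 11.7, with 7.36 and 7.32 on these arrays and -3.29 and -4.29 on HK-2 array 2 and RPTEC/TERT1 array 1. CDH6, a cadherin of the developing proximal tubule, ran the other way, at 0.27 and 0.86 on HK-2 array 2 and RPTEC/TERT1 array 1 and -3.26 and -3.49 on the others. Progenitor markers had a median range of 2.04, and 9 of 11 tested were brightest on the arrays of PROM1 (38.8% of all genes tested). PAX2 and SOX2, transcription factors of nephron progenitors and of stem cells, were at the floor on HK-2 array 2 and RPTEC/TERT1 array 1, while ALDH1A3, a retinaldehyde dehydrogenase, was at the floor on the other pair of arrays and at 0.39 and 0.37 on these.

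The genes around CD44 and hyaluronan had a median range of 0.93, the lowest of the lists plotted. Of these, 5 of 10 tested had a range over 1, near the 52.9% of all genes tested. HMMR, a hyaluronan receptor that is also a mitotic gene, was bright on HK-2 array 2 and RPTEC/TERT1 array 1 (2.75 and 1.91) against -3.13 and -2.40, and TNFAIP6, which modifies hyaluronan, ran the other way. The lists share genes, so their counts are not separate. Among the shared genes, CCL2 is an injury and repair marker and one of the response genes that follow. PAX2 stands among the injury and the progenitor markers, and ITGB8 among the receptors and the injury markers. For IL-1β and NF-κB response genes, 12 of 17 tested had a range over 1 (52.9% of all genes tested), with a median of 1.95. Of the 17, 13 were brightest on HK-2 array 1 and RPTEC/TERT1 array 2, against 38.8% of all genes tested. These included CXCL1 (7.39 and 7.28 there against -2.08 and -2.33), TNFAIP3 and SOD2. VCAM1 was at the floor on those arrays in the processed signal. On HK-2 array 1 it was brightest with normexp on all spots (-0.31) and with the deposited log2 values (-1.06). Genes on the interferon γ route to CD274 had a median range of 1.93, with 8 of 11 tested over 1 (52.9% of all genes tested). Checkpoint ligands had a median of 1.40 with 8 of 11 over 1 (52.9% of all genes tested), of which VTCN1 had the widest range, 5.93.

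**Figure D5:**
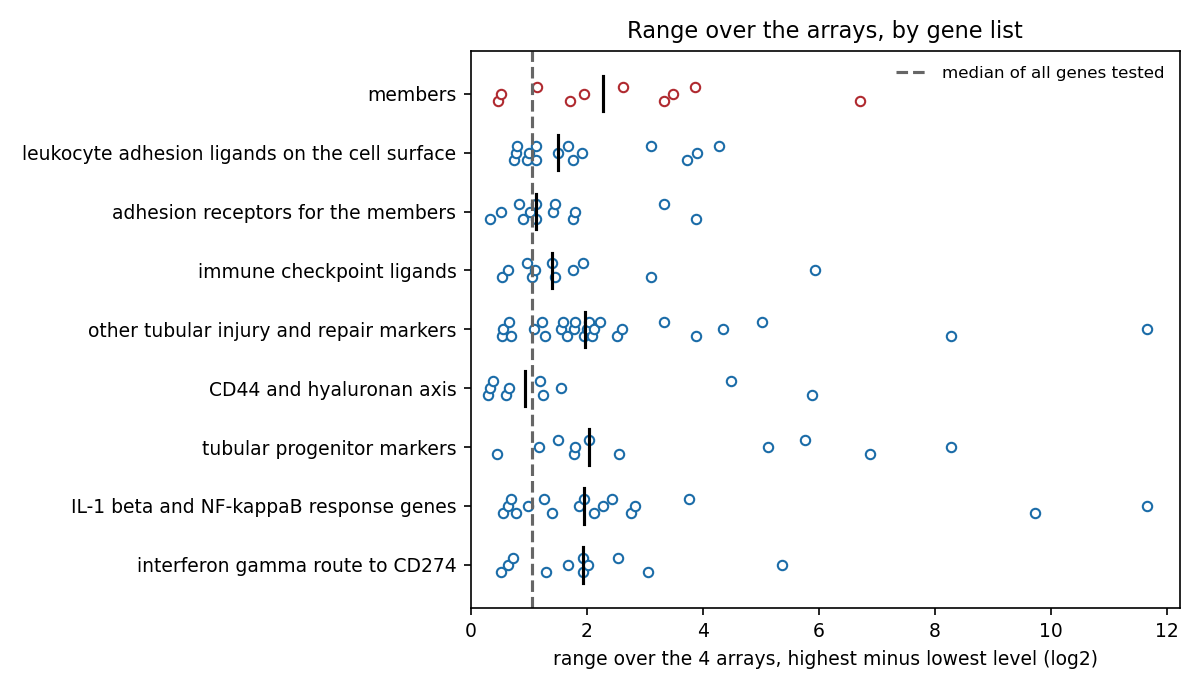
Range over the 4 arrays (x axis, highest minus lowest level, log2) of each gene tested in each list (circles; black bars, list medians; dashed line, the median of 1.05 over all genes tested). The 10 members have a median of 2.28, and the widest range drawn is that of CCL2, 11.7.

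Markers of other cell types were mostly dim, with exceptions such as CD68, a lysosomal protein of macrophages, at 0.15 on HK-2 array 2 and 0.62 on RPTEC/TERT1 array 1, and LUM at 0.23 on HK-2 array 2. Endothelial markers, of which 9 are on the array, summed to 0.34 to 0.63 times the 75th percentile per array, with 1 to 3 above background. Leukocyte markers (11 genes) summed to 1.23 to 2.32, and fibroblast markers (10 genes) to 0.57 and 0.61 on HK-2 array 1 and RPTEC/TERT1 array 2 and 2.04 and 1.58 on the others. LUM and DCN, matrix proteoglycans, were above background on the arrays on which VCAM1 was bright, and ACTA2, smooth muscle actin, ran the other way (-1.56 and -1.39 on HK-2 array 1 and RPTEC/TERT1 array 2, the floor on the others). Distal tubule markers (12 genes) summed to 0.82 to 1.84. The part of these markers in the result was not tested.

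The genes whose levels ran closest to CD24, by the root mean square difference of centred levels over the 4 arrays, were SECTM1 (0.020), ID3 and DENND2A (0.052 each), all above background on every array. For PROM1 the same measure named CLEC4E, ALDH2 and C11orf96, but these and PROM1 lay at the floor on HK-2 array 2 and RPTEC/TERT1 array 1, so their likeness was measured on the other 2 arrays only.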

How the data were processed

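HPTCs labelled HK-2 and RPTEC/TERT1 were compared on 2 one-colour Agilent arrays each. The methods call the arrays biological duplicates, and they give innuPREP for RNA isolation where the labels give RNeasy. The authors deposited spot intensities read with Agilent Feature Extraction 9.5.3.1 (processed signal, background-subtracted and detrended) and log2 values of the same spots, whose scale and centring are not given in the sources used here. The median of those log2 values was 8.33 on HK-2 array 1, 7.14 on HK-2 array 2, 6.75 on RPTEC/TERT1 array 1 and 6.72 on RPTEC/TERT1 array 2. Their direction is that of the intensities.

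From the processed signal, control and outlier spots were removed. Signals were divided by the array's 75th percentile (393 to 748 units), set to a floor of 0.0242 of it, the largest among the arrays of each array's lowest signal above background, and taken to log2. Spots of a probe were averaged. Probes of a gene were averaged after those below background on all arrays had been dropped, unless every probe was below it. Folds against a probe not well above background, or of a saturated one, are bounds against the floor or the dim probe's own level. Probe names are those of the array design. The transcripts of all 11 probes are in RefSeq under the same symbol, and positions are those of the files (GRCh37). Exons and UTRs were not analysed here.

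The labelled lines were compared in limma 3.58.1 (R 4.3.3), lmFit and eBayes, with Benjamini-Hochberg adjustment over 16468 genes. On simulated data with 200 genes of the 16468 changed by 2, around a spread of 0.2, it recovered 200 and made 6 false calls. The arrays of a label lay further apart than this in both labels for every member but ICAM1 and CLU. The SD was 4.75 in HK-2 and 4.53 in RPTEC/TERT1 for PROM1, 2.28 and 2.74 for CD24, and 0.63 and 0.53 for CD274. The simulation therefore does not show how many changes the fit would find at the spread of these data. Genes named are the 10 members, up to 4 per list with the widest range among those tested, and the 3 genes most like each of the 2 members with the widest range. CUBN, SLC22A6, ALPL and HNF4A fall outside this rule and were named after their values were seen, and the counts of signs by setting were also added then. Members and lists were chosen with earlier results of these data known. Replicate numbers match scan dates. Arrays of the same number deviated from their group means with a correlation of -0.810 across genes. No slide held more than 1 array, and slide and array effects cannot be told apart. Alternatives were normexp (offset 50), the deposited log2 values, quantile normalization, other filters, floors and probe rules, blocks, and leaving out each array.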

Additional observations from a re-analysis of the deposited data

Results flagged for a closer look

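For 8 of the 10 genes the difference between replicate 1 and replicate 2 ran one way on the arrays labelled HK-2 and the other way on those labelled RPTEC/TERT1. The gap between these differences (HK-2 minus RPTEC/TERT1, log2) was 7.09 for CD24, 3.74 for CD44 and -5.27 for HAVCR1, which were above background and not saturated on all 4 arrays. For the others it is a bound, because the dim arrays were not well above background or, for SPP1, the bright ones were saturated. In the processed signal it was at least 13.1 for PROM1, at least 4.09 for SOX9 and at least 2.77 for SPP1, and -6.34 or lower for VCAM1 and -1.64 or lower for CD274. For HAVCR1, VCAM1 and CD274 the differences shared a sign with normexp on all spots and with the deposited log2 values. Under the same settings those of ICAM1, which is not among the 8, had opposite signs. With 1 array per label and number the difference was not tested. The signs were opposite for 75.5% of all genes tested as well.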

How the results depend on the processing

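No gene, and none of the 10 members, differed between the labelled lines in limma under any alternative. At an unadjusted p under 0.05 the counts ran from 3 to 240 genes and stayed at 0 members. With the replicate number as a block, limma called 0 genes (5 at an unadjusted p under 0.05). With the pairing crossed, chosen after seeing the data, it called 0 (183 unadjusted). Differences of single members (HK-2 minus RPTEC/TERT1) changed sign as follows. With normexp they were 0.62 for HAVCR1, -0.33 for CLU, -0.42 for PROM1 and -0.45 for CD24. With the deposited values they were 0.23, -0.050, -0.21 and -0.057 for the same genes. With normexp without spots of bright local background, also chosen after seeing the data, they were -0.0080 for SOX9 and -0.064 for PROM1. The cause was not tested. Leaving out each array, with the lone array assumed to vary like the other label, gave -3.20 to 3.51 for PROM1, -1.88 to 1.99 for CD24, -2.13 to 0.75 for HAVCR1, -1.43 to 2.05 for VCAM1, -0.95 to 1.67 for SOX9, -1.04 to 0.88 for CD44, -0.95 to 0.76 for SPP1, -0.13 to 0.76 for CD274, -0.19 to 0.28 for CLU and -0.40 to -0.11 for ICAM1. The brightest pair of arrays was as reported in 59 of 69 combinations of member and alternative, and the other 10 were HAVCR1, VCAM1, ICAM1 and CD274 under normexp and the deposited values, and ICAM1 and CD274 under normexp without bright spots. The range of VCAM1 was 1.35 to 11.4 over the alternatives, that of CD274 0.17 to 2.26 and that of PROM1 4.39 to 6.71. Without a common floor PROM1 has no value, and VCAM1, SOX9, PROM1 and CD274 have none where all 4 arrays had to be above background.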
